A study of Mus musculus with 8 samples.

Results

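The Cd8a and Cd8b1 locus is the stretch of mouse chromosome 6 that holds the genes for both chains of the CD8 co-receptor. It was described here by its accessible regions in unstimulated dendritic cells that the sample titles call CD8-positive. The members are all peaks of either ATAC-seq replicate inside Cd8a or Cd8b1 or within 50 kb of their ends, in mm10 coordinates. There were 7 such regions, of 63183 in the genome: 5 in replicate 1, 7 in replicate 2, and 5 shared, meaning that peaks of both replicates overlapped by at least 1 bp. In ATAC-seq a transposase inserts sequencing adapters wherever chromatin is open, so reads pile up at accessible sites. Of the 8 samples of the series, the 2 ATAC-seq libraries of untreated cells are used here, and the 6 ChIP-seq samples of stimulated cells are not analysed here. One label field gives spleen as the source and another a cell line. The labels give no genotype, strain or age, and do not say whether the replicates were separate cultures, so the spread between them may be technical.

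CD8 is a surface protein that binds MHC class I molecules on other cells. Cd8a encodes the alpha chain and Cd8b1 the beta chain. Cytotoxic T cells mostly carry a pair of one alpha and one beta chain, whereas CD8-positive dendritic cells of the mouse spleen carry a pair of alpha chains. These dendritic cells belong to the cDC1 type, which is known for presenting antigen from other cells on MHC class I. In T cells, a set of enhancers spread over the locus switches the genes on at different stages of development, with RUNX proteins among the factors that act there. Accessibility is not expression, and no transcript was measured in these samples.

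Cd8a had an accessible site at its transcription start in replicate 2 and none in replicate 1, so it had no shared region there. Cd8b1 had no peak within 1 kb of either gene end in either replicate. The shared sites of the locus lay between the genes and on the far side of Cd8b1. From 34 bp inside Cd8a onward, nothing was listed for 67.0 kb.

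The sequence at the start of Cd8a is shown because the replicates differ there, as they also do at a site inside Cd8b1. The start of Gm1070, a predicted coding gene of the same locus, is shown beside it because its peak was shared. Both are the 250 bases before the RefSeq start on the plus strand of GRCm38.p6, the assembly of mm10. They lie at chr6:71373177-71373426 and chr6:71293515-71293764. Capitals mark the bases under the replicate 2 peak for Cd8a, and the bases under the peaks of both replicates for Gm1070.
Cd8a: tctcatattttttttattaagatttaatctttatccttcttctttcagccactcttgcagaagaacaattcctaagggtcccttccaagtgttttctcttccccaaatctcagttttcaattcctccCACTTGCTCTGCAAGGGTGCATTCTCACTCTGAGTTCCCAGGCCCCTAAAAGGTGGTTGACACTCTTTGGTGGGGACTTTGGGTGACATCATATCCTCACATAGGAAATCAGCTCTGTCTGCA
Gm1070: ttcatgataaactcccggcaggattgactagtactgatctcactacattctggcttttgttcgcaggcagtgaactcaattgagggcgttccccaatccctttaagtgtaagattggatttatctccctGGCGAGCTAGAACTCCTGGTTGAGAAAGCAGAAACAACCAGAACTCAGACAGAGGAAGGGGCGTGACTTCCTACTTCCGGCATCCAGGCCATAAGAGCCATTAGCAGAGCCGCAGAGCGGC
The G and C content of the Cd8a stretch was 42.8%, against a median of 55.6% over 21045 annotated starts of coding genes.

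Short motifs were searched on both strands in the 300 bases from 250 before to 50 after each start. The ETS-IRF composite element, GGAA and GAAA with 2 bases between them, is of the kind that PU.1 or a relative binds together with an IRF. It matched at 2 places before Cd8a, and 2.55% of all starts hold a match. The shares given here are not adjusted for G and C content, which was lower at Cd8a than at the median start. The matches, TTTCTCTTCC and TTTCAATTCC as read on the plus strand, began 158 and 136 bases before the start. Both lay upstream of the replicate 2 peak, whose first base is 123 before the start. The RUNX letters TGTGGT (14.7% of starts), AP-1 letters TGANTCA (7.04%) and the interferon-stimulated response element (GAAA repeated after 2 bases, 3.38%) had no match at Cd8a. Neither had the ETS letters AGGAAG (34.1%) nor the PU.1-type letters GAGGAAGT (3.15%), which contain the ETS letters. The E box CANNTG, found at 69.0% of starts, matched at 3 places, 1 of them in the first 6 bases of the peak and 1 across the start. At Gm1070 the ETS letters matched at 2 places, beginning 69 and 55 bases before the start and under the shared peak. A match describes the letters of the window and is not evidence of binding.

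At the Cd8a start (site 7, chr6:71373304-71373460) the summit of the replicate 2 peak lay 21 bp upstream of the annotated start. It held 12 reads, with a 95% Poisson interval from 6.20 to 21.0 that takes reads as independent and covers no more than counting error. The fold enrichment, which is the authors' ratio of summit reads to the background around it, was 5.44. This was a weak peak: 13.4% of all peaks of replicate 2 had a lower −log10 q, the authors' measure of how far a summit stands above background. Among the 13313 peaks of replicate 2 within 1 kb of a coding gene start, 28.8% had a lower fold enrichment and 1.65% held fewer reads. The median of those peaks was a fold enrichment of 6.87 and 27 reads.

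Replicate 1, which lists no peak at this start, was the shallower library, with a background of 0.676 reads per position against 1.28 in replicate 2, a ratio of 1.89. The names of the deposited peak lists also differ in a term whose meaning is not given, so the replicates may differ in more than depth. Over all pairs of overlapping peaks, summits of replicate 2 held a median of 1.45 times the reads of replicate 1. Scaled by these ratios, 12 reads in replicate 2 correspond to 6.35 or 8.28 reads in replicate 1, where the weakest listed summit held 7. Of all 2364 peaks of replicate 2 with 12 reads, 40.3% overlapped a peak of replicate 1. The site was not detected in replicate 1 at this depth and threshold, which does not show that it was closed. In bulk libraries such as these, an open site in few of the cells and a site less open in all of them cannot be told apart.

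**Figure D1:**
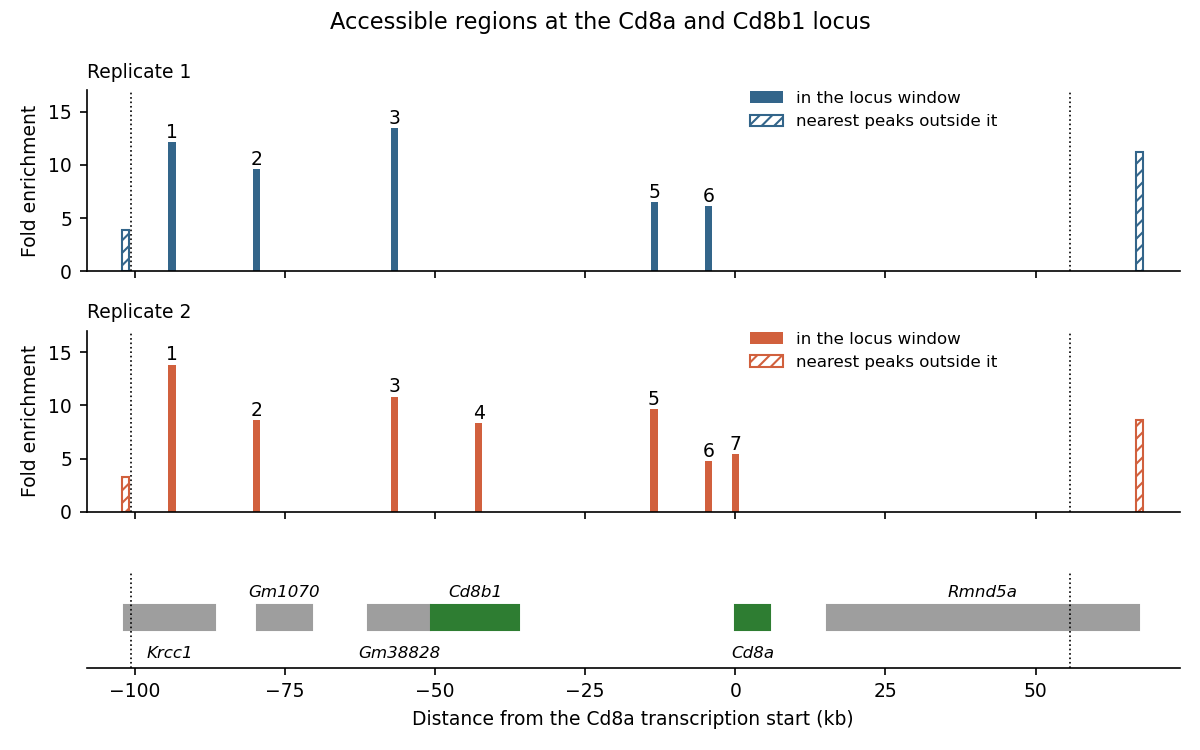
Fold enrichment of each peak (bars, centred on the summit and drawn wider than the peak) against the distance from the Cd8a transcription start in kb, with replicate 1 above replicate 2 and the annotated genes below. Dotted lines are the limits of the 50 kb window and hatched bars the nearest peaks outside it. Sites 1, 2, 3, 5 and 6 appear in both replicates, sites 4 and 7 in replicate 2, and no summit lies in the 55.7 kb from the Cd8a start to the right limit.

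The site nearest to the Cd8a start that both replicates shared was site 6 (chr6:71368968-71369056), with summits 4427 and 4408 bp upstream. It held 10 reads in each replicate, with fold enrichments of 6.15 in replicate 1 and 4.78 in replicate 2. In replicate 2 it was among the weakest listed peaks, with 3.76% of peaks at a lower −log10 q, against 21.7% in replicate 1. The peaks were also narrow, at 83 and 76 bp.

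Site 5 (chr6:71359791-71359982) lay 13.5 kb upstream of the Cd8a start, between the genes. It held 10 reads in replicate 1 and 21 in replicate 2, with fold enrichments of 6.47 and 9.66. Its rank differed between the lists, with 25.8% of peaks lower in replicate 1 and 66.3% in replicate 2. The 2.10-fold ratio of reads was above the upper quartile of 1.71 over all pairs. The Poisson intervals of the counts, 4.80 to 18.4 and 13.0 to 32.1, overlapped. They are not scaled for depth, so they do not measure how far this ratio lies from that of other pairs. Sites 5 and 6 were the 2 regions in the 35.9 kb between Cd8b1 and Cd8a.

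Cd8b1 held 1 peak, site 4 (chr6:71330637-71330733), which lay 7.90 kb from its lower end and 6.81 kb from its upper end and was listed in replicate 2 alone. It held 18 reads (95% Poisson interval 10.7 to 28.4) with a fold enrichment of 8.34, so it was stronger than the peak at the Cd8a start. The peak stood near the middle of its list, with 53.6% of peaks lower. Scaled to replicate 1 as above, 18 reads correspond to 9.52 or 12.4, both above the weakest summit listed there. Of the 2551 peaks of replicate 2 with 18 reads, 67.7% overlapped a peak of replicate 1.

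The highest peak of the locus in each replicate lay on the far side of Cd8b1, away from Cd8a: site 3 in replicate 1 and site 1 in replicate 2. Site 3 (chr6:71316485-71316791) was inside Gm38828, a long noncoding RNA gene that ends close to Cd8b1, and its summits were on average 6.12 kb from the nearer end of Cd8b1. It held 28 reads in replicate 1 and 29 in replicate 2, with fold enrichments of 13.5 and 10.8. In replicate 1 it was the highest of the 5 sites, above 96.8% of that list, and in replicate 2 it was above 81.7%. The 1.04-fold ratio of reads was under the lower quartile of 1.22 over all pairs, as were the ratios of 1.2 at site 2 and 1.00 at site 6.

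Site 1 (chr6:71279439-71279699) lay inside Krcc1, a coding gene named for a lysine-rich coiled coil, 93.8 kb from the Cd8a start. It held 23 reads in replicate 1 and 33 in replicate 2, with fold enrichments of 12.2 and 13.8, and stood above 91.4% and 92.3% of the lists. Site 2 (chr6:71293626-71293844) covered the start of Gm1070, 79.7 kb from the Cd8a start. It held 20 and 24 reads, with fold enrichments of 9.59 and 8.62, and stood above 77.5% and 65.6% of the lists. Sites 1 and 2 thus lie in or at other coding genes and are members through their distance to Cd8b1.

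In replicate 1 the 3 sites beyond Cd8b1 (20 to 28 reads) did not overlap the 2 sites between the genes (10 reads each). In replicate 2 the 3 sites beyond Cd8b1 held 24 to 33 reads, and the 4 from Cd8b1 to the Cd8a start held 10 to 21. On the other measures the sides were not separate in replicate 2, where site 5 was above site 2 in fold enrichment (9.66 and 8.62) and in the percentage of peaks with a lower −log10 q (66.3% and 65.6%). Some Poisson intervals overlapped across the sides, such as 12.2 to 30.9 at site 2 and 4.80 to 18.4 at site 5 in replicate 1. Others did not, such as 22.7 to 46.3 at site 1 and 4.80 to 18.4 at site 6 in replicate 2. With 7 sites these are descriptions. All sites had a single summit, as had 86.0% of all peaks in replicate 1 and 86.6% in replicate 2. The median width in the locus was 192 bp in replicate 1 and 157 bp in replicate 2, against 145 and 159 bp over the whole lists. At the 5 shared sites the summits of the replicates were 8 to 26 bp apart, against a median of 19 bp over all pairs.

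**Figure D2:**
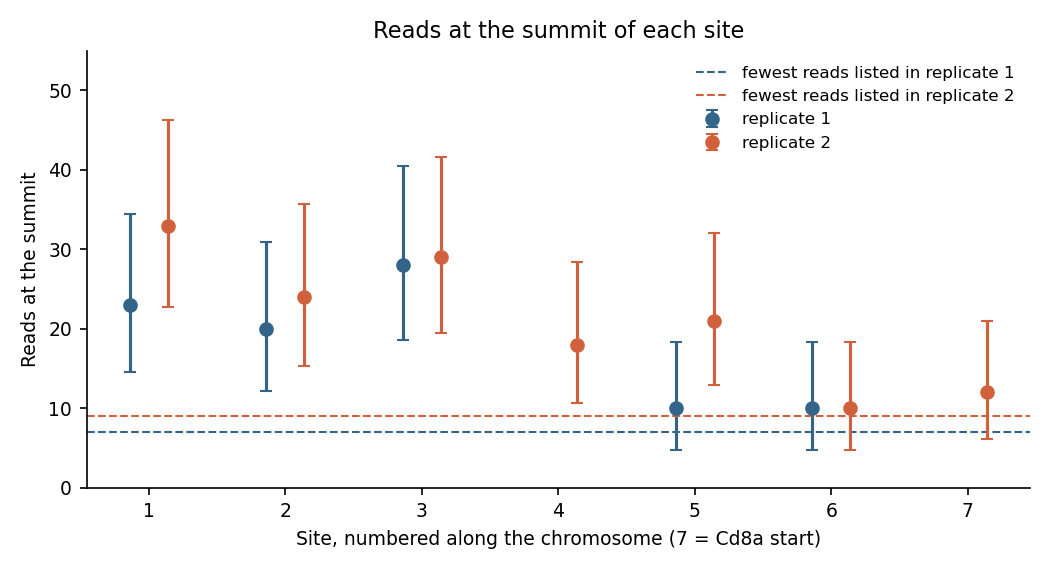
Reads at the summit (points) of each site in both replicates, with 95% Poisson intervals as bars; the dashed lines are the fewest reads of any listed summit, 7 in replicate 1 and 9 in replicate 2. Sites 5, 6 and 7 near Cd8a hold 10 to 21 reads and sites 1 to 3 beyond Cd8b1 hold 20 to 33, and sites 4 and 7 have no point in replicate 1.

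Downstream of the Cd8a start the locus was empty in both lists. No peak of either replicate lay in the stretch chr6:71373461-71440427, which holds nearly all of Cd8a and most of Rmnd5a, a neighbouring gene that encodes a subunit of a ubiquitin ligase complex. Its length of 67.0 kb compares with a median of 8.25 kb over all 63109 peak-free stretches between neighbouring regions, of which 90.0% were shorter. The stretch was picked because it spans the end of Cd8a, and a stretch picked by a position tends to be long. The 90.0% therefore does not show that this stretch was unusually empty. The stretch ended at the start of Rmnd5a, 11.3 kb outside the window, with fold enrichments of 11.2 and 8.60. On the other side the nearest peaks outside the window were 885 and 860 bp beyond it, next to the start of Krcc1, with fold enrichments of 3.92 and 3.25. Other peaks within 1 kb of the Krcc1 start were higher, at 7.88 in replicate 1 and 7.80 in replicate 2. The starts of the neighbouring genes Krcc1, Gm1070 and Rmnd5a all had a shared region, which 49.3% of 17274 coding genes with an annotated start had.

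The number of accessible sites around Cd8a was low to middling for a coding gene. Cd8a had 2 shared regions inside it or within 50 kb of its ends, and Cd8b1 had 5, against a median of 5 over 21631 coding genes (quartiles 1 and 8). Fewer than Cd8a had 28.0% of the genes, and 65.3% had more. For Cd8b1 the shares were 49.8% and 42.5%. Per 100 kb of the stretch counted, Cd8a had 1.89 shared regions and Cd8b1 4.36, against a median of 3.35. On that measure 36.5% of all coding genes were below Cd8a and 59.9% below Cd8b1. Cd8a and Cd8b1 share the sites between them, so their counts are not independent. The nearest shared region to the Cd8a start was 4371 bp away. Over the 17274 coding genes with an annotated start the median was 1284 bp, and 55.4% had one nearer than Cd8a. For Cd8b1 the nearest shared region was 5997 bp from the lower end and 20.7 kb from the upper end.

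**Figure D3:**
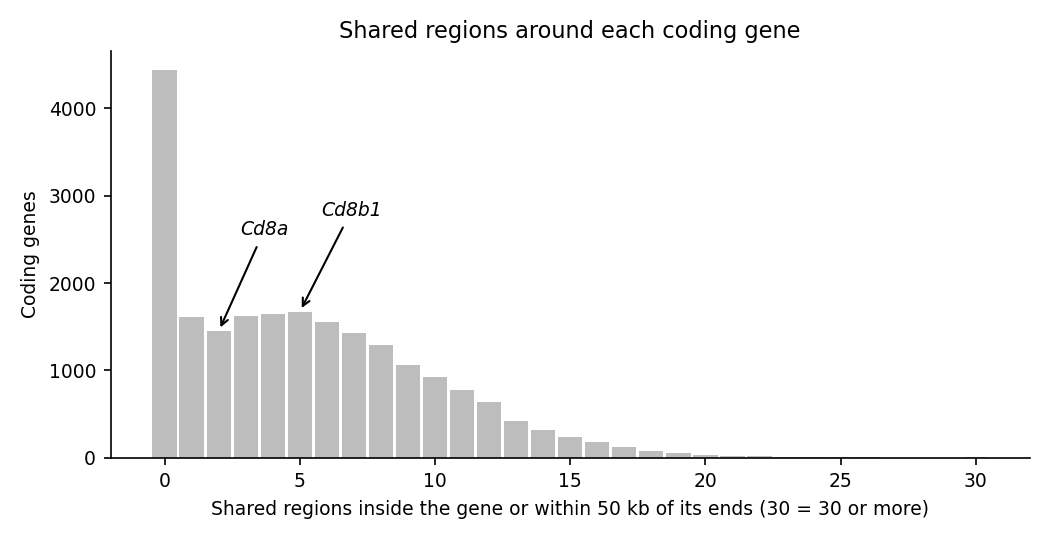
Number of coding genes (bars) by their number of shared regions inside the gene or within 50 kb of its ends. Arrows mark the bars that hold Cd8a, at 2, and Cd8b1, at 5, which is the median of all genes.

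Other surface and lineage genes of cDC1 had more sites around them than Cd8a, as had 65.3% of all coding genes. Of 11 markers 9 had an annotated start here, and all 9 had more shared regions within 50 kb than Cd8a or Cd8b1 (7 to 22, median 10). Of all coding genes, 42.5% had more than Cd8b1. Here and below, shares for counts within 50 kb are over 21631 coding genes. Shares for peaks at or distances from a start are over the 17274 with an annotated start. The stretch counted grows with gene length, and these marker counts were not put per 100 kb. More than Cd8a also had 7 of 9 genes of the co-receptor and T cell receptor complex, 7 of 10 T cell markers, 2 of 3 NK cell markers, 2 of 3 B cell markers and 2 of 2 plasmacytoid dendritic cell markers. A shared region lay at the start of 5 of the 9 (55.6%), near the 49.3% of all coding genes, and within 2 kb of the start of 8, where 51.5% of all coding genes had one. Itgax, the gene of the integrin CD11c, had fold enrichments of 7.86 and 7.19 there with 70 and 83 reads, and Flt3, a growth factor receptor for dendritic cells, had 12.4 and 13.4 with 30 and 46 reads. Ly75, the gene of the endocytic receptor DEC-205, had 8.54 and 11.0 with 21 and 41 reads. Irf8 and Id2, which encode regulators of cDC1 development, also had a shared region at the start. Clec9a, a receptor for dead cells, and Batf3, a cDC1 transcription factor, also had a peak at the start in replicate 2 alone. Their fold enrichments of 3.30 and 3.63 were lower than the 5.44 of Cd8a, but they held more reads, 20 and 22 against 12. Of all coding genes, 50.2% had a peak at the start in replicate 1 and 51.6% in replicate 2. The chemokine receptor gene Xcr1 and the transcription factor gene Zbtb46 had no peak at the start in either replicate. The nearest shared region was 1223 bp from the start of Clec9a, 1245 bp from that of Xcr1 and 1830 bp from that of Batf3. Of the 9 cDC1 starts 8 had a shared region nearer than Cd8a, the exception being Zbtb46, and 55.4% of all coding genes had a nearer one.

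T cell genes that act with CD8 were without a peak at the start. The co-receptor and T cell receptor complex list holds Cd4, the CD3 chains, the kinases Lck and Zap70 and their adaptors. Of its 10 genes 9 had an annotated start, and 0 of the 9 had a peak within 1 kb in either replicate, against the 49.3% of all coding genes with a shared one. Lck, the kinase bound to the CD8 alpha chain, had its nearest shared region 1638 bp away, and Cd3e had it 3524 bp away. For the other 7 genes it was 4813 bp to 286858 bp away, farther than for Cd8a. Of 10 T cell markers with an annotated start, of which 8 are also in that list, 1 had a shared region at the start. It was Cd5, with fold enrichments of 9.29 and 10.9. The other 9 of these markers, the CD3 chains among them, had no peak at the start in either replicate. The NK cell list had 0 of 3, the B cell list 1 of 3 (Ebf1) and the plasmacytoid dendritic cell list 2 of 2 (Siglech and Bst2).

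Of 19 genes for factors known to act on the Cd8 genes or on cDC1 fate, 18 had an annotated start, and 11 of them (61.1%) had a shared region there, against 49.3% of all coding genes. The RUNX genes were among them: Runx3, which acts on Cd8 enhancers in T cells, had fold enrichments of 7.57 and 9.84, Runx1 had 6.25 and 6.54, and their partner Cbfb had 9.06 and 6.82. The hematopoietic regulator Ikzf1 had 7.66 and 6.67. Zbtb7b, which encodes a repressor of Cd8 genes in helper T cells, had 5.40 and 5.67, and Patz1, which encodes another repressor of Cd8 genes, had 4.19 and 5.39. The region near Gata3 had 11.6 and 13.8 but lay 968 bp from the start, at the edge of the 1 kb limit. Stat5a, Stat5b, Irf8 and Id2 were the other members with one, and Batf3 had the replicate 2 peak given above. The T cell factor genes Bcl11b, Satb1, Tcf7 and Lef1 had no peak at the start in either replicate, with the nearest shared region 50425 to 334277 bp away. The same was true of Tbx21 and Eomes, which encode factors of effector T and NK cells, with the nearest shared region at 11912 and 11582 bp.

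**Figure D4:**
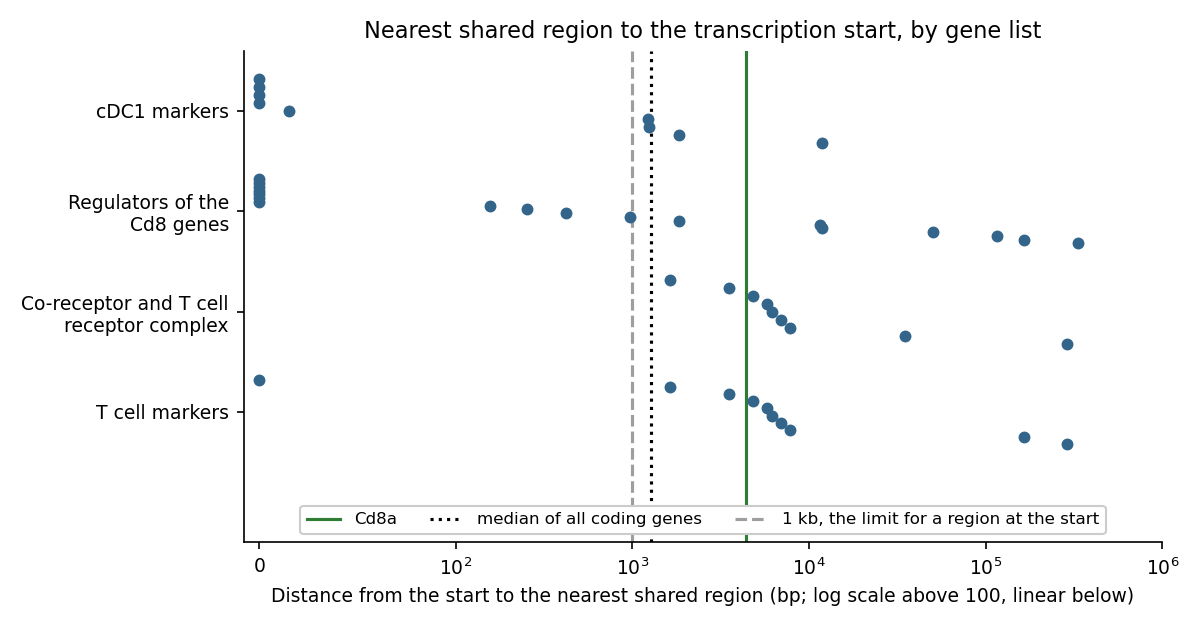
Distance in bp from the transcription start to the nearest shared region for each gene (points) of 4 lists, on an axis that is logarithmic above 100 bp and linear below. The solid line is Cd8a at 4371 bp and the dashed line the 1 kb limit. The dotted line is the median of all coding genes with an annotated start, at 1284 bp. Of 9 cDC1 markers 8 lie left of Cd8a. Of 9 genes of the co-receptor and T cell receptor complex 7 lie right of Cd8a.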

How the data were processed

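Peaks of 2 ATAC-seq samples were used; the groups were taken from the sample titles, and both samples form 1 group. Per the submitters' processing notes, the build was mm10 and the tools were MACS2, HOMER 4.9.1, Picard 2.8.1, BWA 0.7.17 and Trimmomatic, named without roles. The read shift, removal of duplicates and the calling threshold are not given in the sources used here, and each can change which weak peaks are listed. Peaks were called per sample. The deposited fold enrichment is a ratio of summit reads to local background, each with 1 added. The lowest deposited −log10 q was 3.00 in both lists. The deposited score is that value times 10, and the deposited −log10 p belongs to the same summit.

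Summits of 1 peak were joined and the best kept. The reads of a summit were derived from the deposited fold enrichment and −log10 p, which came back within 0.002 for 100% of summits. They are not independent molecules. The Poisson intervals treat them as independent and leave out any other spread, so they can be too narrow even for counting error. Replicate 1 had 50950 regions and replicate 2 had 58319, with medians of 16 and 22 reads at the best summit. Gene ends came from RefSeq GRCm38.p6 and starts from its promoter table, which holds 17274 of 21631 coding genes of the autosomes and X. Cd8b1 was therefore measured from both gene ends. No test between groups was possible, and all shares are descriptions. Alternatives were overlap, score, window and each replicate alone. The functions were tested on simulated data, with Python 3.11.15, numpy 2.4.6, scipy 1.17.1, pandas 2.3.3 and matplotlib 3.10.9. The members, lists, motifs and alternatives were chosen with earlier results of these data known. All genes of the lists and of the window could be named; other genes were counted.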

Additional observations from a re-analysis of the deposited data

How the results depend on the processing

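No paired analysis was possible because both samples belong to 1 group. Of 78 alternative values, 60 stayed within 1.5 times the count reported (or, for percentages of genes, within the SD between the replicates) and 18 moved. That SD comes from the values with each replicate left out, which are themselves among the 78. Many of the values are small counts and some lists share genes, so the tally is only a description. The locus had 3 shared regions with the better-scoring 50% of each list and 3 within 20 kb, and 11 within 100 kb. Without replicate 1, 1 of the ends of Cd8a and Cd8b1 was accessible, and without replicate 2 there were 0. The percentage of coding genes with fewer shared regions than Cd8a was 0 with the better-scoring 50%, where Cd8a had none, 21.3 at −log10 q of at least 5, 38.7 within 20 kb and 48.6 within 100 kb. It ranged from 26.3 to 34.8 when a replicate was left out. For Cd8b1 it was 56.5 with the better-scoring 50% and 27.3 within 20 kb. Within 2 kb of the start, 8 cDC1 markers, 2 T cell markers, 1 NK cell marker and 1 gene of the co-receptor and T cell receptor complex had a shared region, as had 51.5% of all coding genes. B cell markers went to 0 with the better-scoring 50% and within 500 bp (47.7% of all coding genes), and plasmacytoid markers to 1 with a reciprocal overlap of 50%. The cause of these moves was not tested. Sites with fewer than 7 reads in replicate 1 or 9 in replicate 2 are absent from the lists, so a missing peak does not show closed chromatin.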
